A study of Homo sapiens with 12 samples.

Results

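The response of LKB1-deficient A549 cells to high-dose ascorbate (AA, ascorbic acid) was measured by RNA sequencing as the difference between 3 libraries of AA-treated cells and 3 libraries of cells given phosphate-buffered saline (PBS). These 6 libraries, of 12 in the series, were taken by the genotype and treatment in their labels. Genes of stress, heat shock and immediate early programs were left out of the ranking of genes, and the description covers the other gene families and processes. A549 is an established human lung adenocarcinoma line, and STK11 encodes LKB1, a kinase that activates the energy sensor AMPK. All 12 libraries are labelled as this line. The deficient cells carry the label LKB1-deficient and the titles call them con, and the titles call AA VitC. The other 6 libraries, labelled WT and taken as LKB1-intact because the series design names such a group, received the same 2 treatments and served to ask where the response of deficient cells differed. The labels speak of pretreatment, and give no dose, no exposure time, no account of how the lines were made and no statement that replicates were separate cultures. The p-values therefore speak of the spread among these libraries only, and that spread may be technical.

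Ascorbate enters cells as the reduced acid through sodium-dependent transporters of the SLC23 family, and in its oxidised form, dehydroascorbate, through glucose transporters of the SLC2 family. Inside the cell it keeps the iron of 2-oxoglutarate-dependent dioxygenases reduced, and these enzymes hydroxylate collagen and hypoxia-inducible factor and demethylate histones and DNA. At high dose in medium it reacts with iron and oxygen and yields hydrogen peroxide, and reduction of the dehydroascorbate taken up draws on glutathione and NADPH. AMPK, which LKB1 activates, restrains anabolic metabolism when energy runs low.

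The 6 libraries held 16391985 to 20306129 estimated counts, and 12718 of the 20323 genes listed passed the low-count filter. STK11 (chr19:1177558-1228435, plus strand, GENCODE 29 on GRCh38) lay at 5.94, 6.56 and 4.86 CPM under PBS and 5.61, 7.34 and 6.97 CPM under AA (CPM, counts per 1000000 of the library scaled with TMM factors). Its difference under AA was 0.19 on the log2 scale (SE 0.13, edgeR adjusted p = 0.189; without AA replicate 1 it was 0.30, adjusted p = 0.0487), and all 6 values lay below the means of the intact cells, 24.5 ± 0.917 CPM under PBS and 26.1 ± 2.0 CPM under AA (SD, n = 3 each). The markers fixed for the line's epithelial identity summed to 2590 to 2820 CPM under PBS and 2580 to 2660 CPM under AA, nearly all of it from KRT8, KRT18 and KRT7, of which KRT8 was lower and the other 2 higher under AA. Of its 14 genes GPX2 and SFTPC were at 0 in all 6 libraries, and ALDH1A1, KRT19, NKX2-1 and SFTPB lay at or below 0.274 CPM in each. AKR1B10 was at 0.632 CPM on average under PBS, CDH1 at 1.3 CPM under PBS and 1.17 CPM under AA, and AKR1C1 went from 24.4 to 7.9 CPM. The sum thus rests on keratins of simple epithelia and does not single out A549. The name of the line rests on the labels. Of the leukocyte list, CD3D, CD3E and TYROBP were at 0 and its sum of 83.3 to 91.0 CPM under PBS and 104 to 111 CPM under AA was nearly all CD68. The fibroblast list summed to 12.5 to 13.3 CPM and 11.3 to 12.4 CPM, with COL1A2 and LUM at 0. The endothelial list summed to 6.56 to 9.41 CPM and 0.815 to 1.78 CPM, with KDR at 0 and CDH5 as nearly the whole of it. Leukocyte and endothelial sums thus moved with AA through 1 gene each, and their part in the results below was not tested.

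PBS replicate 1 stood apart in a small set of genes, many of them of stratified epithelium, and AA replicate 1 in a few such genes. In PBS replicate 1, 18 genes lay at least 2 log2 below the other PBS libraries, against 4 to 6 genes in each other library, among them KRT6A, KRT5, KRT14, DSG1, DSG3, COL17A1, PKP1 and SERPINB5, chosen here after their values were seen. KRT5, a basal-cell keratin, stood at 0.429, 25 and 19 CPM under PBS and 18, 14.8 and 9.75 CPM under AA. KRT14, its usual partner, stood at 0.306, 14.7 and 11.6 CPM under PBS and 12, 7.72 and 7.03 CPM under AA. Both keratins were low in that library alone, and the AA libraries all lay above it. The change under AA was -0.06 and 0.02 with all libraries and -0.63 and -0.55 without PBS replicate 1, KRT6A went from -0.56 to -1.13, and without AA replicate 1 DSG1 went from -1.0 to -4.83, all called then. In AA replicate 1, DSC1, DSG1 and KRT1 lay at least 2 log2 above the other AA libraries. DSG1 stood there at 2.35 CPM, against 0.0548 and 0.0524 CPM in the others. None of these genes is used as a response to AA. Without PBS replicate 1, 9179 genes were called, against 9465 with all libraries and 9083 to 9158 without each other library in turn. The cause was not tested.

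AA moved most of the transcripts measured in deficient cells. Of 12718 genes, 9465 (74.4%) were called by edgeR's quasi-likelihood test at an adjusted p under 0.05, 4705 (37.0%) up and 4760 (37.4%) down. These shares are the background for every count of family members below, and their balance follows in part from the scaling of the libraries. The median change of all genes was 0.01 on the log2 scale, with quartiles at -0.43 and 0.42, and 1838 genes (14.5%) changed by at least 1 log2, 852 (6.7%) up and 986 (7.75%) down. The 3 AA and 3 PBS libraries did not overlap for 9598 genes (75.5%), and 9137 (71.8%) were both called and free of overlap, so an absence of overlap was the rule in these cells and not a mark of single genes. These libraries come from bulk RNA, in which fewer cells of a kind and less RNA per cell cannot be told apart.

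The direction of change followed transcript length, taken as the length implied by each gene's estimated count over its FPKM (fragments per kilobase of transcript and per 1000000 fragments). Among the 1539 shortest transcripts, of 207 to 1225 bp, 1028 (66.8%) rose and 127 (8.25%) fell, and their median change was 0.41 log2. Among the 1539 longest, of 5171 to 26593 bp, 221 (14.4%) rose and 1095 (71.2%) fell, with a median of -0.44. The 6 bins between them lay in order, and in intact cells the medians of the shortest and longest bins were 0.36 and -0.35. Genes with a single annotated exon lay below the trend. Of 213 tested genes with 1 exon, 32 (15%) rose and 114 (53.5%) fell, with a median of -0.48, and of -0.43 after the length trend was removed. That trend, a running median of the log2 change over 501 genes ordered by length, is set beside each gene family below where it turns the family's median or moves it by more than 1.5 times. A change that follows transcript length is among the signs of a difference in RNA quality between libraries. No RNA integrity values were used, and the part of RNA quality in the trend and in the family medians below was not tested.

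**Figure D1:**
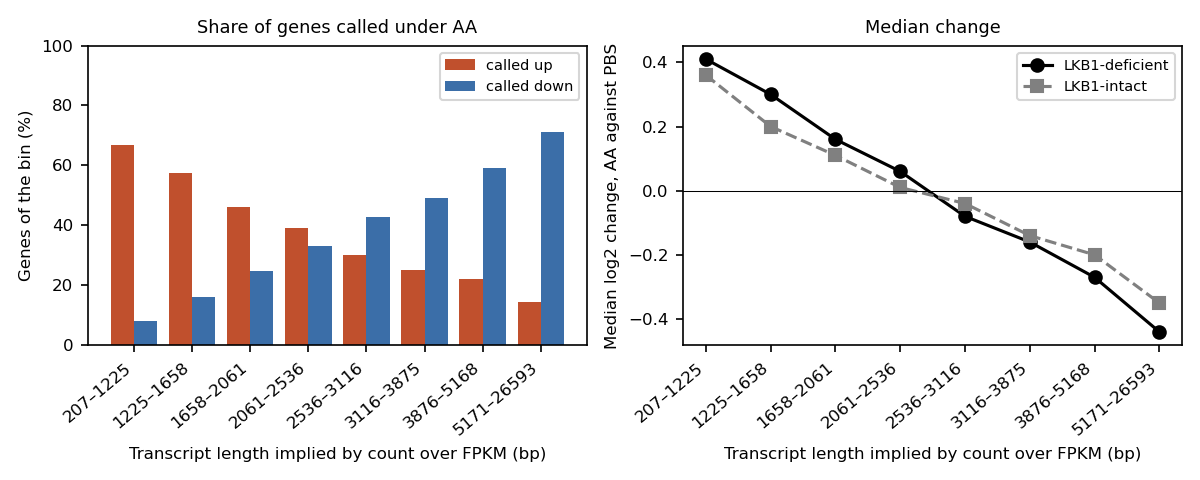
Response to AA by transcript length in 8 bins of 1538 or 1539 genes. Left, share of genes in LKB1-deficient cells called up (red) and down (blue), in percent; right, median log2 change of each bin in LKB1-deficient (black) and LKB1-intact (grey) cells; the share called up goes from 66.8% in the shortest bin to 14.4% in the longest.

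The largest rises outside the stress programs were led by transcription factors and inhibitors of growth factor signalling. ETV5, ETV1 and ETV4, the PEA3 group of ETS factors that ERK signalling induces, all stood in the first 15 of the 7501 genes eligible (called, no overlap, mean log2 CPM of at least 3). ETV5 stood at 3.86, 3.71 and 4.55 CPM under PBS and 29.6, 29.9 and 31.8 CPM under AA. ETV1 stood at 3.55, 4.19 and 4.79 CPM under PBS and 27.1, 26.8 and 28.8 CPM under AA. For both genes the AA libraries lay within a narrow band far above every PBS library, and the log2 changes were 2.91 (SE 0.121, edgeR adjusted p = 3.41e-15) and 2.72 (SE 0.103, edgeR adjusted p = 6.69e-16). The length implied for ETV1 was 1907 bp on average under PBS and 3322 bp under AA with no overlap, so the mean length credited to the gene moved together with its count. ERRFI1, which binds and inhibits the EGF receptor, stood at 16.7, 19.5 and 17.9 CPM under PBS and 118, 117 and 118 CPM under AA, a 6.53-fold rise. LMO4, a LIM-domain cofactor of transcription, rose from 3.12 ± 0.296 to 20.4 ± 0.231 CPM and TSC22D3, the glucocorticoid-induced leucine zipper protein, from 11.3 ± 1.17 to 69.2 ± 1.33 CPM (SD, n = 3). Secreted proteins among the rises were IGFBP1, a binder of insulin-like growth factors (log2 2.57), and SEMA3A, an axon guidance factor (log2 2.22). IL20RB, a cytokine receptor subunit, rose by 2.15 on the log2 scale.

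Among enzymes, PCK2, the mitochondrial phosphoenolpyruvate carboxykinase, went from 18.8 ± 1.33 to 102 ± 4.02 CPM, and CYP1A1, the cytochrome P450 that the aryl hydrocarbon receptor induces, from 3.69 ± 0.86 to 18.9 ± 2.27 CPM (SD, n = 3). H2AC6, a core histone gene whose close copies make its count uncertain, rose from 14.8 ± 1.04 to 81.7 ± 3.81 CPM (SD, n = 3). CDKN1A, the p53-induced inhibitor of cyclin-dependent kinases, stood at 28.3, 27.1 and 24.5 CPM under PBS and 113, 116 and 122 CPM under AA and rose 4.39-fold. CYSRT1 rose by 2.31 on the log2 scale. All 15 genes also rose in intact cells. In 14 of them the rise was larger in deficient cells by the test of the difference, against 21.6% of all genes with a difference called higher, while for CDKN1A the difference was -0.01 (SE 0.0797, edgeR adjusted p = 0.922). These 15 were picked for the size of their rise in deficient cells, which favours a positive difference.

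The largest falls included many long transcripts and several zinc finger genes. LENG8, a gene of the leukocyte receptor cluster region on chromosome 19, stood at 199.7, 172 and 176 CPM under PBS and 28.1, 27.1 and 27.2 CPM under AA, a log2 change of -2.73 (SE 0.0653, edgeR adjusted p = 3.01e-19). JRK, a nuclear DNA-binding protein derived from a transposase, stood at 51.5, 42.9 and 47.2 CPM under PBS and 7.91, 8.6 and 7.81 CPM under AA. In neither gene did any AA library come near a PBS library. ZBED6, which is nested in another gene and derives from a transposase too, fell by 2.34 on the log2 scale. The zinc finger genes ZNF469, ZNF587 and ZNF587B fell by 2.54, 2.26 and 2.34, the latter pair being close copies that can share reads, as can GOLGA8A (-2.29) with GOLGA8B (-2.28) and ANKRD36 (-2.46) with its relatives. PLAGL2, a zinc finger activator, went from 59.95 ± 1.51 to 11.8 ± 0.968 CPM, and HIVEP3, which binds kappa-B motifs, from 19.9 ± 1.31 to 4.19 ± 0.166 CPM (SD, n = 3). ENTPD7, an intracellular nucleotide hydrolase, stood at 89.96, 103 and 99.5 CPM under PBS and 20.2, 19.3 and 21.8 CPM under AA. EPM2AIP1, a partner of the laforin glycogen phosphatase, fell by 2.37, CLN8, a protein of the early secretory pathway, by 2.23 and CCDC9B by 2.43 on the log2 scale. All 15 also fell in intact cells. The difference between the cell kinds was called lower in deficient cells for 10, higher for 1 (ZNF469) and for 4 was not called. Median transcript length was 2100 bp among the 15 rises and 5660 bp among the 15 falls, against 2540 bp over all genes.

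**Figure D2:**
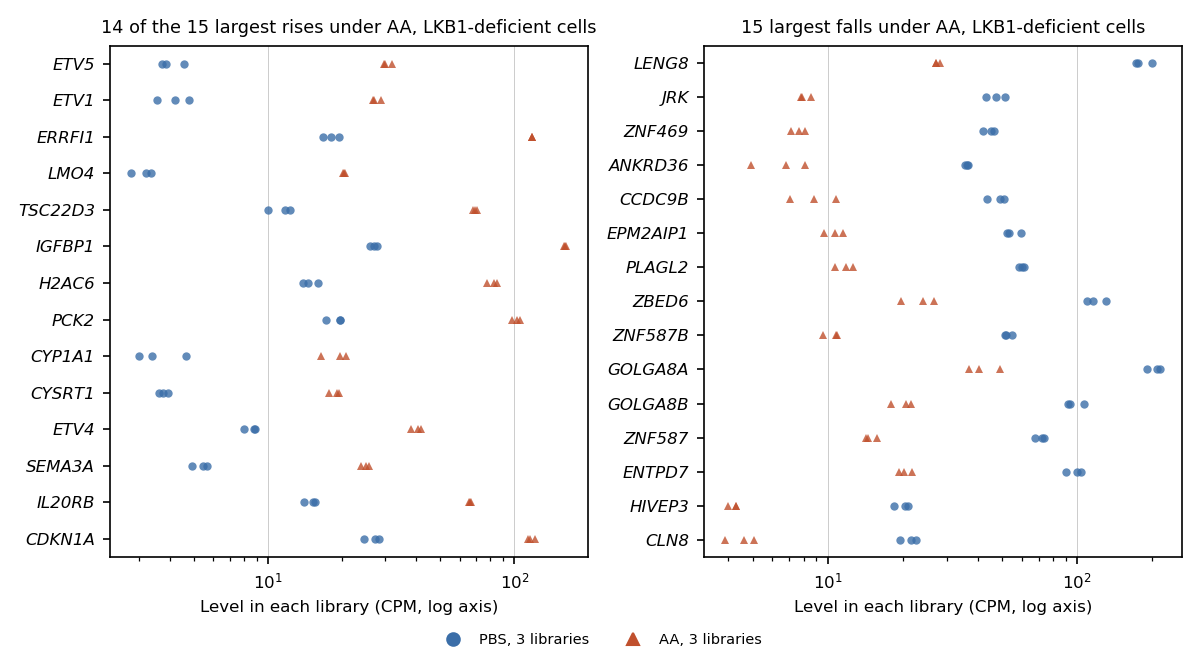
Levels of 14 of the 15 largest rises (left) and of the 15 largest falls (right) in LKB1-deficient cells, in CPM on a log axis, with 1 point per library (blue circles PBS, red triangles AA). No AA library overlaps a PBS library in any row, which the choice of genes required.

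The sequence before the start of the first 2 ranked rises and first 2 ranked falls that have an entry in the RefSeq promoter table is shown because these genes moved furthest. Each run is the 250 bases before the start on GRCh38.p14, read 5′ to 3′ on the gene's strand, with matches to any of 7 motifs in capitals. ETV1 is at chr7:13990703-13990952 (minus strand), ERRFI1 at chr1:8026310-8026559 (minus strand), LENG8 at chr19:54448949-54449198 (plus strand) and CCDC9B at chr15:40340940-40341189 (minus strand).
ETV1: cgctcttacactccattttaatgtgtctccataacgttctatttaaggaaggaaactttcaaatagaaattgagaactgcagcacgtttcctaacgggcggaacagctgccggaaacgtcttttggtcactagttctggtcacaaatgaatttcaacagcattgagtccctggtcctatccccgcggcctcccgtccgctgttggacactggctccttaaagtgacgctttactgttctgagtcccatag
ERRFI1: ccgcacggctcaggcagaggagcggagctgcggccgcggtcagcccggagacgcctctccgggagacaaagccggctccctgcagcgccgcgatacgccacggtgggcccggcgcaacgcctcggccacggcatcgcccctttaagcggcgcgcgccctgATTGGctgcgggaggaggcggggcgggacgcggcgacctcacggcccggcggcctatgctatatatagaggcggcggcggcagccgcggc
LENG8: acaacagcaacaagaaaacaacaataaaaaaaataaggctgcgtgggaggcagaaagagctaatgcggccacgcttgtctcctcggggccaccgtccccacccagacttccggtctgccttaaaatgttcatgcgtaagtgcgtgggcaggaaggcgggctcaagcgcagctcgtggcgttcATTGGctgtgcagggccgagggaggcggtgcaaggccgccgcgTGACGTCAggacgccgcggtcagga
CCDC9B: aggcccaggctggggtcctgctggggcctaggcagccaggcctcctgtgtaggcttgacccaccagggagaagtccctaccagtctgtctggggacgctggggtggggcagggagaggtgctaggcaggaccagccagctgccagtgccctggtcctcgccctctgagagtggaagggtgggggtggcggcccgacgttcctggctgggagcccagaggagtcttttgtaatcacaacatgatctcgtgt
The motifs were searched on both strands: TGACGTCA (cAMP response element), TGA, any base and TCA (AP-1 site), CACGTG (E-box), TATAAA (a core promoter element known as the TATA box), the CCAAT box of those 5 letters, TGACNNNGC (core of the antioxidant response element) and GGGNNTTCC (NF-kB site). None of the motifs contains another, and overlapping matches would each count. In ERRFI1 the capitals mark a CCAAT box whose first base lies 90 bases before the start. In LENG8 they mark a CCAAT box 68 bases and a cAMP response element 25 bases before it, and ETV1 and CCDC9B hold no match. Of all 15343 promoters matched by symbol, 34.8% hold a CCAAT box and 2.36% a cAMP response element. Over the tested genes with a promoter, 10187 in all, the TATA box was in 5.34%. It was in 63 of 622 promoters (10.1%) of genes called up by at least 1 log2, in 50 of 757 (6.61%) of those called down by at least 1 log2 and in 5.65% of those not called. The cAMP response element was in 1.93% of the first and 2.11% of the second, against 2.91% of tested genes. A match describes the letters of this window and nothing more.

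Zinc finger genes fell as a family. C2H2 zinc finger proteins, most with a KRAB domain that recruits the corepressor TRIM28, are the largest group of human transcription factors, and many bind and silence transposable elements. Of 364 tested genes with a ZNF symbol, 49 rose and 240 fell, and the median change was -0.66 log2 (-0.59 after removal of the length trend). The fall held in 4 bins of length, from 42 down and 20 up of 89 in the shortest to 76 down and 5 up of 89 in the longest, and among 122 genes of low, 121 of middle and 121 of high level the medians were -0.78, -0.58 and -0.59. On chromosome 19, where the large clusters of these genes lie, 120 of 166 fell and 15 rose (median -0.85), while of 198 on other chromosomes 120 fell and 34 rose (median -0.43). The 731 tested genes on chromosome 19 without a ZNF symbol had 309 up and 220 down (median 0.13). ZNF526 fell from 17.1 ± 2.09 to 2.55 ± 0.402 CPM, ZNF708 from 9.4 ± 0.193 to 1.46 ± 0.353 CPM and ZNF417 from 10.4 ± 1.33 to 1.75 ± 0.316 CPM (SD, n = 3). ZNF207, which serves spindle assembly, fell by 0.55, ZNF131 was at 0.05 (edgeR adjusted p = 0.249) and ZNF569, ZNF524, ZNF362 and ZNF76 rose by 1.51, 1.18, 1.06 and 1.02. The median of the family in intact cells was -0.58.

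ZBTB factors, which join zinc fingers to a BTB domain, had 24 of 38 members down and 5 up (median -0.57, and -0.25 without the length trend). ZBTB39 fell from 14.8 ± 1.63 to 3.46 ± 0.16 CPM and ZBTB5 from 26 ± 0.311 to 7.23 ± 0.189 CPM (SD, n = 3), ZBTB6 and ZBTB34 fell by 1.79 and 1.64 log2, while ZBTB10 rose by 1.17 and ZBTB2 by 0.75. Histone lysine methyltransferases had 20 of 29 down and 6 up (median -0.41). KMT2D, KMT2A and KMT2B, which methylate histone H3 at lysine 4 of enhancers and promoters, fell by 1.68, 1.24 and 1.27 log2. KMT2A stood at 346, 357 and 344 CPM under PBS and 146, 148 and 149 CPM under AA, so every AA library lay below the lowest PBS library. DOT1L, the methyltransferase of lysine 79, fell by 1.3 and PRDM2 by 1.4. EZH2, the catalytic subunit of Polycomb repressive complex 2, rose instead, at 123, 122 and 125 CPM under PBS and 202, 201 and 204 CPM under AA. In intact cells the change was -0.06 (difference 0.77, SE 0.0483, edgeR adjusted p = 3.31e-11). KMT5A, SETDB2 and SMYD3 rose by 0.62, 0.69 and 0.74.

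**Figure D3:**
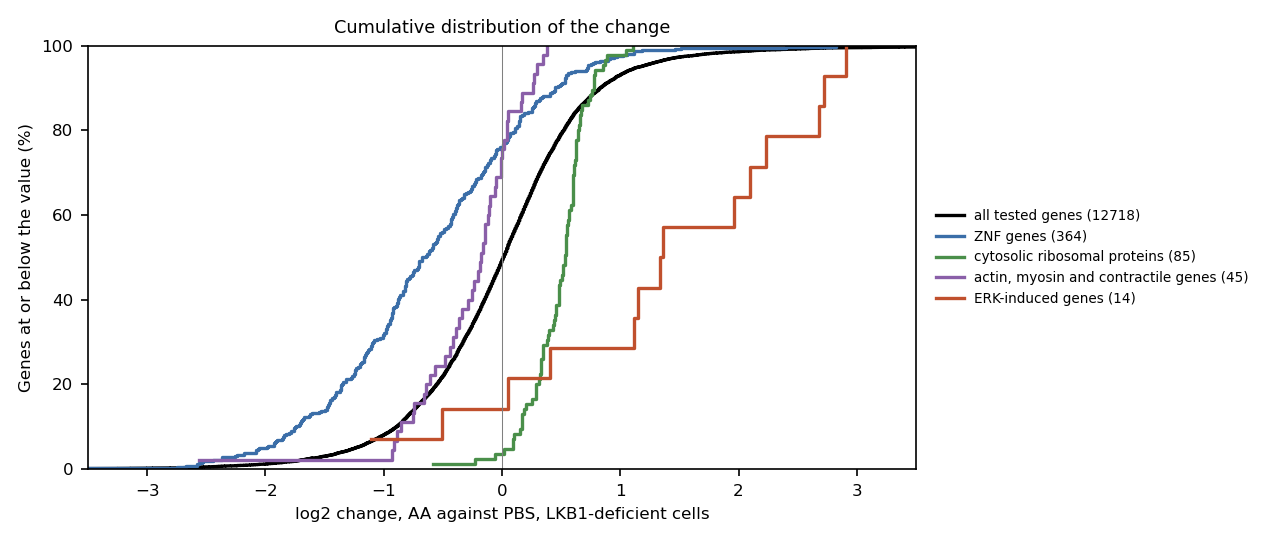
Cumulative distribution of the log2 change under AA in LKB1-deficient cells for all 12718 tested genes and 4 gene lists, with tested members in brackets. The curve of the 364 ZNF genes lies left of that of all genes, that of the 85 cytosolic ribosomal protein genes lies right of it over most of its range, and the x axis ends at -3.5 and 3.5.

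SR proteins, which bind exons and recruit the spliceosome, fell in 10 of 11 cases, with 1 up (median -0.28, and -0.46 without the length trend). SRSF2 fell furthest, at 394, 379 and 379 CPM under PBS and 172, 176 and 174 CPM under AA, a log2 change of -1.14 (SE 0.0284, edgeR adjusted p = 5.6e-19). The libraries of each treatment lay close together and the treatments did not overlap. SRSF11, SRSF4, SRSF8 and SRSF1 fell by 0.58, 0.51, 0.39 and 0.39, and SRSF7, SRSF6, SRSF10, SRSF3 and SRSF5 by 0.15 to 0.28. SRSF8 and SRSF5 were not called with limma on FPKM (-0.01 and -0.05). SRSF9 was the member that rose (0.36, and -0.01 without the length trend). The response was lower in deficient than in intact cells for 7 of the 11, against 23.0% of all genes, and SRSF2 changed by -0.20 in intact cells. Among the kinases that phosphorylate SR proteins and their relatives of the DYRK family, DYRK3 fell from 58.8 ± 2.86 to 18.7 ± 1.74 CPM and PRPF4B from 208 ± 5.5 to 109 ± 1.16 CPM (SD, n = 3), DYRK2, DYRK1A, CLK2 and CLK4 fell by 1.19, 0.87, 0.78 and 0.44, and CLK1 rose by 0.83. That list had 7 of 13 down (53.8%) and 1 up (7.69%), beside 37.4% and 37.0% of all genes. Its median was -0.28, and -0.50 without the length trend.

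Core components of the spliceosome went the other way. The snRNP, LSM and SF3 genes had 21 of 34 up and 5 down with a median of 0.21, which turned to -0.10 without the length trend. SNRPA, LSM8 and LSM4 rose by 0.71, 0.69 and 0.61, and LSM11, which acts in histone pre-mRNA processing, and the large subunits SF3A1, SF3B3 and SF3B1 fell by 1.7, 0.57, 0.38 and 0.15. Without the length trend SF3B3 and SF3B1 turned (0.14 and 0.01), and SF3B1 was not called with limma on FPKM (-0.06, adjusted p = 0.137). Nonsense-mediated decay, which removes transcripts with premature stop codons, had 10 of 16 genes down (62.5%) and 6 up (37.5%). Over all genes 37.4% fell and 37.0% rose. The median of the list was -0.24, and 0.05 without the length trend. SMG1, the kinase that phosphorylates UPF1, went from 382 ± 10.8 to 179 ± 6.44 CPM, and UPF1, the central helicase, from 159 ± 10.1 to 101 ± 3.81 CPM (SD, n = 3). The adaptors UPF3A and UPF3B rose by 0.53 and 0.52, and SMG9, which holds SMG1 in check, by 0.81, against -0.10 in intact cells (difference 0.91, edgeR adjusted p = 2.97e-10).

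Most ribosomal protein genes rose. Of 85 cytosolic ribosomal protein genes 79 rose and 3 fell, with a median 0.53, and 0.10 without the length trend. RPL10A stood at 369.8, 346 and 350.3 CPM under PBS and 771, 768 and 759 CPM under AA (log2 1.11), and RPL22L1, a paralogue of RPL22, rose by 1.05. The fallers were RPL36AL (-0.58), RPL7L1 (-0.23) and RPL7A (-0.06), the first 2 being paralogues of standard members. RPL7A was not called with library sizes, upper quartile factors, limma on FPKM or the 6 deficient libraries alone (-0.01 to -0.06). The rise was smaller than in intact cells for 34 of these genes and larger for 4. Over all genes 23.0% had a difference called lower and 21.6% called higher. Mitochondrial ribosomal protein genes had 57 of 78 up and 9 down (median 0.34, and -0.03 without the length trend). MRPS31 rose from 13.1 ± 1.77 to 34.6 ± 1.61 CPM and MRPL2 from 27.9 ± 1.1 to 51.9 ± 1.81 CPM, while MRPS25 fell from 150.2 ± 10.7 to 82.4 ± 4.66 CPM (SD, n = 3). The length implied for MRPS25 was 3955 bp on average under PBS and 2284 bp under AA, with no overlap, and on the scale of log2(FPKM + 1), which divides by that length, its change was -0.02 (limma adjusted p = 0.770).

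Proteasome genes had 23 of 37 up and 9 down (median 0.16, and -0.12 without the length trend). PSMB9 and PSMB8, the immunoproteasome subunits of the catalytic core, rose by 0.61 and 0.65 and the ubiquitin receptor PSMD4 by 0.68. PSMD3, PSMD11 and PSMD1 of the regulatory particle fell by 0.70, 0.51 and 0.34. PSMD3 stood at 168, 174 and 164 CPM under PBS and 100.5, 103 and 108 CPM under AA, and in intact cells it changed by 0.15 (difference -0.84, SE 0.0543, edgeR adjusted p = 5.15e-11). The response was lower in deficient than in intact cells for 20 of the 37 subunits and higher for 6, against 23.0% and 21.6% of all genes.

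Coats of the vesicles that run between endoplasmic reticulum and Golgi fell in 18 of 28 cases with 6 up (median -0.24). SEC24C, which selects COPII cargo, stood at 269, 284 and 269.6 CPM under PBS and 142, 140.5 and 135 CPM under AA, with the AA libraries at about the same distance below all PBS libraries. SEC16A, the scaffold of exit sites, fell by 1.17, SEC24D by 0.84 and KDELR3, a retrieval receptor, by 0.97. COPZ1, COPG2, COPZ2 and COPE of the COPI coat rose by 0.33, 0.43, 0.57 and 0.32, while COPA and COPB2 fell by 0.18 and 0.30. COPE and COPA turned without the length trend (-0.05 and 0.06). The response was lower than in intact cells for 19 of the 28, against 23.0% of all genes, and the intact median was 0.02.

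The actin cytoskeleton was lower under AA. Of 45 actin, myosin and contractile genes 29 fell and 7 rose (median -0.18, and -0.29 without the length trend). ACTB, cytoplasmic beta-actin, stood at 4068, 4290.0 and 3964 CPM under PBS and 2415, 2394 and 2551 CPM under AA. ACTG1, gamma-actin, stood at 2306, 2398 and 2187 CPM under PBS and 1233, 1198 and 1237 CPM under AA. Both genes were lower in every AA library than in any PBS library, with log2 changes of -0.74 (SE 0.0265, edgeR adjusted p = 2.58e-16) and -0.91 (SE 0.0265, edgeR adjusted p = 8.42e-18). In intact cells they changed by -0.05 and -0.13, and both differences were called (ACTB -0.70, edgeR adjusted p = 2.57e-12, and ACTG1 -0.78, edgeR adjusted p = 4.13e-13). The nonmuscle myosin heavy chains MYH9 and MYH10 fell by 0.93 and 0.89, and TAGLN, an actin-binding protein of contractile cells, from 8.34 ± 0.486 to 1.42 ± 0.526 CPM (SD, n = 3). MYO1E, PFN2, MYL12A and ARPC3 rose by 0.38, 0.35, 0.30 and 0.27, the last 2 turning without the length trend (-0.12 and -0.15). The response of this list was lower in deficient than in intact cells for 30 of 45 genes and higher for 3. Over all genes the shares were 23.0% and 21.6%. The intact median of the list was 0.07.

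Cilium and intraflagellar transport genes, which build the primary cilium, had 22 of 34 up and 5 down (median 0.38). IFT43 rose from 7.18 ± 0.853 to 16.2 ± 2.28 CPM, IFT74 from 10.4 ± 1.44 to 19.9 ± 0.743 CPM and IFT88 from 14 ± 0.303 to 24.8 ± 1.28 CPM (SD, n = 3). The motor subunit DYNC2LI1 rose by 0.82, while TCTN2 of the transition zone fell by 1.44 and IFT122 by 0.33. The median rise in intact cells was 0.35.

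**Figure D4:**
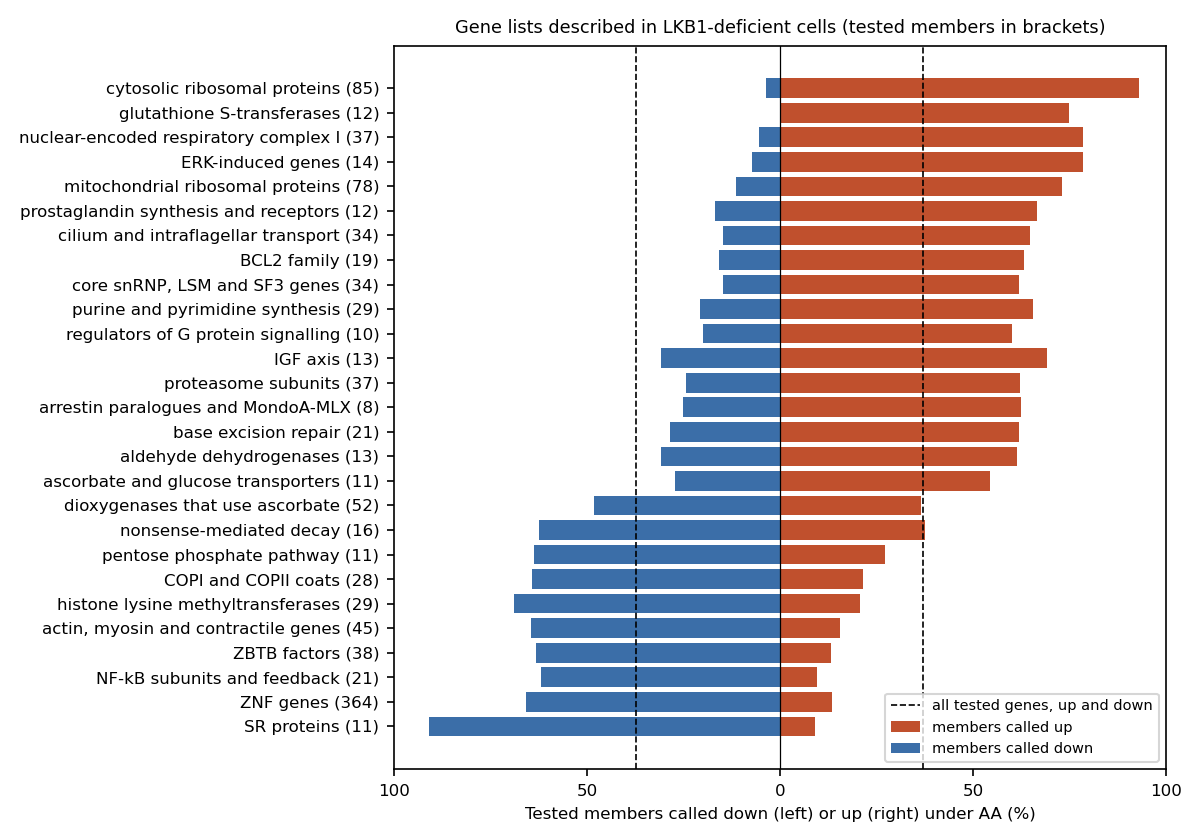
Share of tested members called up (red, right) and called down (blue, left) under AA in LKB1-deficient cells, in percent, for 27 gene lists with tested members in brackets. Dashed lines mark the shares over all tested genes, 37.0% up and 37.4% down.

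A list of genes that active ERK induces had the highest median of the 101 lists outside the stress programs and markers. Most encode brakes on the pathway, DUSP phosphatases that remove the phosphates of ERK and Sprouty and SPRED proteins that act on RAS and RAF. The list also holds the PEA3 factors described above, which are effectors of ERK and no brakes, ETV5 being its highest member. Called up were 11 of the 14 genes tested and called down 1. The median log2 change was 1.35, and 9 of the 14 responses were higher than in intact cells, against 21.6% of all genes. In intact cells the median was 0.64. Without the PEA3 factors 8 of 11 genes rose and 1 fell, with a median of 1.15, and 6 responses were higher than in intact cells. DUSP5 stood at 22, 26.2 and 23.2 CPM under PBS and 94.6, 95.9 and 87.3 CPM under AA. DUSP4 stood at 46.1, 51.1 and 44.8 CPM under PBS and 122, 121 and 122 CPM under AA. Both nuclear phosphatases were higher in every AA library, by 3.89-fold and 2.57-fold. DUSP6, the cytoplasmic ERK phosphatase, went from 1.73 ± 0.244 to 7.46 ± 0.659 CPM, and SPRY4 from 0.979 ± 0.167 to 6.33 ± 0.752 CPM (SD, n = 3). SPRY2, SPRED2 and SPRED1 rose by 1.15, 1.12 and 0.41 on the log2 scale, the last not called with limma on FPKM (0.16 and 0.23 with the 2 pseudocounts). PHLDA1 rose by 1.34 in deficient cells and stood at -0.43 in intact cells (difference 1.78, SE 0.0922, edgeR adjusted p = 1.56e-12). DUSP7 fell by 1.11, and DUSP9 (0.05, edgeR adjusted p = 0.328) and SPRY3 (-0.51, edgeR adjusted p = 0.28) were not called.

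Of the ligands of the EGF receptor family 4 rose. AREG, amphiregulin, stood at 3.25, 4.86 and 4.79 CPM under PBS and 17.4, 16 and 15.3 CPM under AA. EREG, epiregulin, stood at 6.07, 5.95 and 6.82 CPM under PBS and 17, 15.9 and 17.4 CPM under AA. Neither gene's AA libraries overlapped its PBS libraries, and the log2 changes were 1.92 (SE 0.156, edgeR adjusted p = 2.82e-10) and 1.42 (SE 0.11, edgeR adjusted p = 1.43e-10). AREG changed by -0.03 in intact cells (difference 1.94, edgeR adjusted p = 1.29e-06). HBEGF and NRG1 rose by 0.88 and 0.92, the receptor ERBB3 by 0.54, and NRG4 fell by 0.22, a call lost without PBS replicate 1 or AA replicate 1, with DESeq2, library sizes or upper quartile factors (-0.16 to -0.21), and with limma on FPKM (-0.02). EGFR itself stood at 581, 608 and 602 CPM under PBS and 589, 564 and 579 CPM under AA, with overlapping groups and a change of -0.05 on the log2 scale (edgeR adjusted p = 0.179), against -0.85 in intact cells (difference 0.80, edgeR adjusted p = 6.83e-12). The changes of TGFA (0.13), ERBB2 (0.05), ERBB4 (0.57), LRIG1 (0.20) and EPGN (-1.1) were not called, although EPGN was without PBS replicate 1 (-1.64) and TGFA without PBS replicate 2 (0.18). The list had 6 of 13 members up (46.2%), ERRFI1 among them, and 1 down (7.69%), beside 37.0% and 37.4% of all genes (median 0.54).

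**Figure D5:**
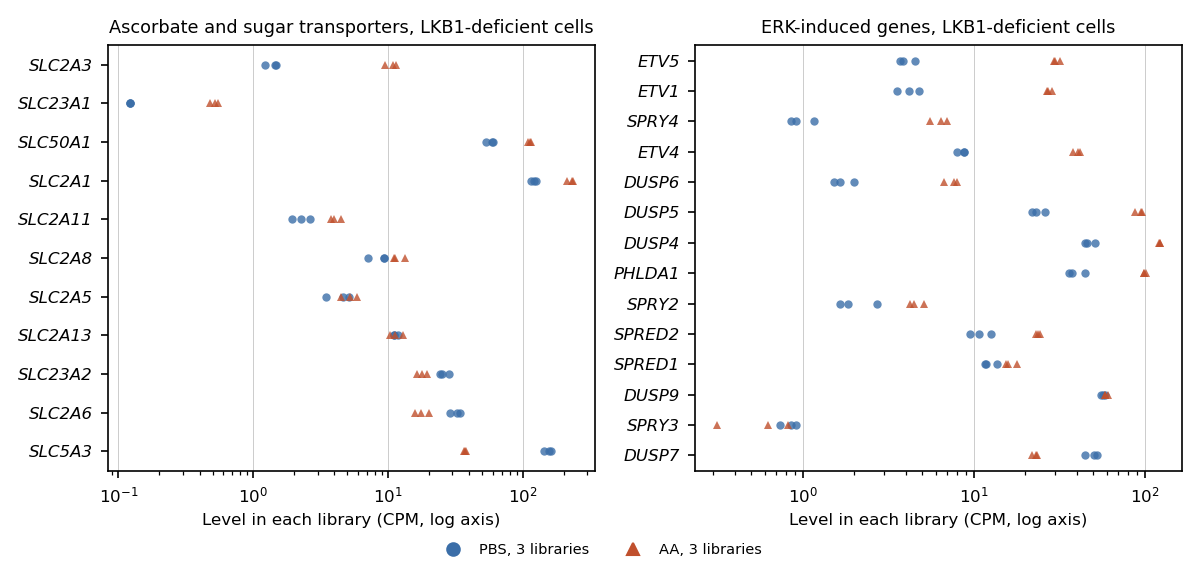
Levels of ascorbate and sugar transporter genes (left) and ERK-induced genes (right) in LKB1-deficient cells, in CPM on a log axis, with 1 point per library (blue circles PBS, red triangles AA), ordered by log2 change. The AA libraries lie right of the PBS libraries for 6 of 11 transporters and 11 of 14 ERK-induced genes.

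The insulin-like growth factor axis was led by IGFBP1, at 27.8, 27 and 26 CPM under PBS and 160.4, 158 and 162 CPM under AA, against a change of 0.42 in intact cells (difference 2.15, edgeR adjusted p = 9.69e-14). The binding proteins IGFBP6, IGFBP3, IGFBP4 and IGFBP7 rose by 0.76, 0.58, 0.31 and 0.22, and the adaptors IRS2 and IRS1 by 0.70 and 0.47. The receptors went down, IGF1R from 126 ± 4.36 to 75.3 ± 2.33 CPM (SD, n = 3), INSR by 0.43 and IGF2R by 0.39. Without the length trend IGF1R was at -0.20 and INSR and IGF2R turned (0.11 and 0.17), as did IGFBP7 (-0.09), and IGF2R was not called with limma on FPKM (adjusted p = 0.0539). Of the RNA-binding IGF2BP genes, IGF2BP1 fell by 0.64 and IGF2BP2 and IGF2BP3 rose by 0.20 and 0.12, the last with overlapping groups and no longer called without PBS replicate 1, AA replicate 1 or AA replicate 2 (0.08 to 0.10). In all, 9 of 13 members rose and 4 fell (median 0.22). Plasminogen activation and matrix proteases had 7 of 15 up (46.7%) and 5 down (33.3%), beside 37.0% and 37.4% of all genes. Their median was 0.18, and -0.20 without the length trend. Both an activator and an inhibitor were among the rises. PLAU, the urokinase, rose from 6.03 ± 0.949 to 26.2 ± 0.614 CPM, its receptor PLAUR by 0.55, and the inhibitor SERPINE2 from 7.07 ± 0.939 to 23.7 ± 1.12 CPM (SD, n = 3). For PLAU and SERPINE2 the changes in intact cells were 0.15 and -0.42, with differences of 1.97 and 2.17 (edgeR adjusted p = 1.91e-09 and 2.72e-09). The metalloprotease inhibitors split, with TIMP4 and TIMP1 up by 1.25 and 0.18 and TIMP2 and TIMP3 down by 0.80 and 0.46, TIMP1 turning without the length trend (-0.24), and MMP14 and MMP15 fell by 0.64 and 0.52.

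NF-kB subunits and the genes that feed back on them fell in 13 of 21 cases with 2 up (median -0.36, and -0.21 without the length trend). TNFAIP3, the deubiquitinase A20, stood at 85.6, 96 and 77.5 CPM under PBS and 31.3, 36.6 and 36.5 CPM under AA. TRAF3, which restrains the noncanonical arm, fell from 52.5 ± 3.92 to 21.4 ± 0.798 CPM, and BIRC3 from 189.7 ± 11.1 to 115 ± 6.61 CPM (SD, n = 3). The subunit REL fell by 0.90, NFKBIZ by 1.28 and NFKB2 by 0.22. NFKBIA, the inhibitor IkB-alpha, went the other way, at 52.2, 56.3 and 55.1 CPM under PBS and 105, 104 and 104 CPM under AA, and RELA rose by 0.10, a call lost without PBS replicate 3 or AA replicate 2 (0.06 and 0.09). The median in intact cells was -0.66, and 12 differences were called higher in deficient cells and 2 lower, against 21.6% and 23.0% of all genes.

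Prostaglandin genes rose in 8 of 12 cases and fell in 2 (median 0.55, and 0.34 without the length trend). Beside PTGS2 (log2 2.67), the inducible cyclooxygenase, its constitutive form PTGS1 stood at -0.10 (edgeR adjusted p = 0.0778) and PTGES, the terminal E2 synthase, at -0.02 (edgeR adjusted p = 0.701). PTGDS, the D2 synthase, rose from 6.63 ± 0.395 to 16.4 ± 2.13 CPM, and the degrading enzymes PTGR1 from 21 ± 1.91 to 40.03 ± 3.69 CPM and HPGD from 1.96 ± 0.55 to 3.99 ± 0.571 CPM (SD, n = 3). PTGR2, PTGES2 and PTGES3 rose by 0.78, 0.31 and 0.29, and PLA2G4A and PTGER4 fell by 0.13 and 0.78. The PLA2G4A value lay at the threshold: its call was lost with DESeq2, limma on FPKM, library sizes, upper quartile factors, no low-count filter, a minimum count of 50, the replicate block, the 6 deficient libraries alone, and without PBS replicate 1 or 3 or AA replicate 1 or 3 (-0.07 to -0.13 in all). The E2 receptor PTGER3 had 1 count over the 3 PBS libraries and 144 counts over the 3 AA libraries, a ratio of 121 after scaling, with an exact 95% interval of 21.5 to 4830 that covers counting error only.

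Regulators of G protein signalling, which speed the shut-off of G protein alpha subunits, rose in 6 of 10 cases and fell in 2 (median 0.40, and 0.05 without the length trend). RGS14 rose from 0.448 ± 0.0325 to 1.33 ± 0.178 CPM (SD, n = 3) and RGS10, RGS19, RGS17 and RGS11 by 0.46, 0.35, 0.72 and 0.82. RGS16 had 2 counts over the PBS libraries and 37 over the AA libraries, a ratio of 15.6 with an interval of 4.02 to 134. The rise of RGS17 was no longer called without PBS replicate 2 or AA replicate 1 (0.63 and 0.47), and RGS2 was called without AA replicate 1 (0.25). RGS12 and RGS3 fell by 0.90 and 0.38, and RGS2 (0.19, edgeR adjusted p = 0.0785) and RGS20 (0.13, edgeR adjusted p = 0.625) were not called. In the aryl hydrocarbon receptor pathway 5 of 9 genes rose (55.6%) and 3 fell (33.3%), beside 37.0% and 37.4% of all genes. The median was 0.16, and 0.32 without the length trend. The receptor AHR itself stood at 84.2, 83.6 and 89.9 CPM under PBS and 165, 163 and 156 CPM under AA, with every AA library above every PBS library. Its target CYP1B1 rose by 0.28 beside CYP1A1, NQO1 by 0.16 (-0.21 without the length trend) and ALDH3A1 by 0.73. The repressor AHRR fell from 118 ± 3.75 to 44.9 ± 2.75 CPM (SD, n = 3), the partners ARNT and ARNT2 fell by 0.15 and 1.49, and TIPARP was at -0.01 (edgeR adjusted p = 0.75). ARNT lost its call without PBS replicate 2 or AA replicate 3 (-0.12 and -0.13) and with library sizes or upper quartile factors (-0.09 and -0.11), and turned without the length trend (0.07).

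Of 11 transporters of ascorbate and glucose 6 rose (54.5%) and 3 fell (27.3%), beside 37.0% and 37.4% of all genes. Their median was 0.48, and 0.27 without the length trend. SLC2A3, the high-affinity glucose transporter GLUT3, stood at 1.47, 1.46 and 1.23 CPM under PBS and 11.4, 10.8 and 9.44 CPM under AA. SLC2A1, GLUT1, which takes up dehydroascorbate, stood at 122, 125 and 116 CPM under PBS and 234, 213 and 232 CPM under AA. Both rose with no overlap, by 2.92 (SE 0.184, edgeR adjusted p = 3.85e-12) and 0.91 (SE 0.045, edgeR adjusted p = 6.87e-14) on the log2 scale, and in intact cells by 3.74 and 0.61. SLC23A2, the ascorbate transporter SVCT2, stood at 24.3, 28.5 and 25 CPM under PBS and 17.8, 16.4 and 19.4 CPM under AA, and all 3 AA libraries lay below the PBS libraries (log2 -0.54, SE 0.0875, edgeR adjusted p = 1.06e-05). SLC23A1, SVCT1, rose from a level near the limit of detection, from 0.122 ± 0.00077 to 0.517 ± 0.0345 CPM (SD, n = 3). SLC5A3, the sodium and myo-inositol cotransporter, stood at 156, 142 and 162 CPM under PBS and 38, 36.3 and 36.9 CPM under AA, a log2 change of -2.05, and this fall was deeper than in intact cells (difference -0.91, SE 0.0657, edgeR adjusted p = 3.1e-10). SLC50A1, SLC2A11 and SLC2A8 rose by 0.97, 0.84 and 0.48, SLC2A6 fell by 0.83, and SLC2A5 (0.24, edgeR adjusted p = 0.201) and SLC2A13 (0.01, edgeR adjusted p = 0.919) were not called.

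Of 52 tested dioxygenases whose iron ascorbate keeps reduced, 19 rose and 25 fell (median -0.14, and 0.00 without the length trend), shares of 36.5% and 48.1% beside 37.0% and 37.4% of all genes. TET3, which oxidises 5-methylcytosine, stood at 67.8, 75.2 and 71.9 CPM under PBS and 29.2, 31.4 and 27.5 CPM under AA. HIF1AN, the asparagine hydroxylase that limits hypoxia-inducible factor, stood at 90.6, 88.6 and 87.7 CPM under PBS and 40.8, 41.7 and 39.2 CPM under AA. In both genes every AA library lay far below every PBS library. RIOX1, a ribosomal oxygenase, fell from 15.4 ± 1.45 to 4.88 ± 0.0941 CPM (SD, n = 3), and the histone demethylases KDM2A and KDM5C fell by 0.83 and 0.36 (KDM5C 0.00 without the length trend). Other demethylases rose: JMJD1C stood at 176, 182 and 183 CPM under PBS and 336, 343 and 332 CPM under AA, and KDM3A rose by 0.70. ALKBH3 and ALKBH8, which act on alkylated nucleic acid and transfer RNA, rose by 1.05 and 0.65, and in intact cells changed by 0.00 and -0.03 (differences 1.04 and 0.68, edgeR adjusted p = 4.26e-07 and 2.91e-06).

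TXNIP, which the glucose-sensing factor MondoA drives and which pulls glucose transporters from the membrane, rose together with 3 of its 4 arrestin relatives, and the last, ARRDC2, fell. With MondoA, its paralogue and their partner MLX, 5 of 8 genes rose and 2 fell (median 0.44). TXNIP stood at 52.8, 47.1 and 58.1 CPM under PBS and 162, 176 and 179 CPM under AA. ARRDC4, its closest partner in regulation, stood at 19.6, 19.1 and 19.4 CPM under PBS and 27.1, 26.2 and 28.3 CPM under AA. In intact cells they changed by 0.29 and -0.83, and the differences were 1.42 (edgeR adjusted p = 3.42e-11) and 1.32 (edgeR adjusted p = 3.69e-08). ARRDC3 and ARRDC1 rose by 0.97 and 0.40 and MLXIPL, the paralogue of MondoA, by 1.72 from a low level, while MLXIP, which encodes MondoA, fell from 71.2 ± 4.09 to 32 ± 1.4 CPM (SD, n = 3), ARRDC2 fell by 0.21 (-0.16 and not called without AA replicate 3) and MLX, their partner, was at 0.00 (edgeR adjusted p = 0.943).

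In the pentose phosphate pathway, the main source of cytosolic NADPH, 7 of 11 genes fell and 3 rose (median -0.10, and -0.21 without the length trend). With limma on FPKM 4 were called down. TKT, transketolase, stood at 996, 1020.0 and 956 CPM under PBS and 911, 922 and 944 CPM under AA, a change of -0.10 (SE 0.0268, edgeR adjusted p = 0.00241) against 0.24 in intact cells, with a difference of -0.34 (SE 0.0378, edgeR adjusted p = 2.01e-07). The TKT fall was not called with library sizes or upper quartile factors in place of TMM (-0.04 and -0.06), nor with limma on FPKM (-0.06). SHPK and H6PD fell by 0.80 and 0.52, and PRPS2 and PRPS1 by 0.25 and 0.16, the last not called on FPKM (-0.15). PGLS, its lactonase, went the other way, from 31.9 ± 1.8 to 62 ± 4.59 CPM (SD, n = 3), RPE and TALDO1 rose by 0.48 and 0.19 (TALDO1 turned to -0.18 without the length trend), and RPIA was at -0.06 (edgeR adjusted p = 0.591).

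Purine and pyrimidine synthesis had 19 of 29 genes up and 6 down (median 0.24, and 0.09 without the length trend). GART, of the purine route, rose from 159 ± 6.3 to 234 ± 10.4 CPM, and IMPDH1, which commits inosine monophosphate to guanine nucleotides, fell from 87.5 ± 4.78 to 47 ± 1.52 CPM (SD, n = 3). CAD and CTPS1, of the pyrimidine route, fell by 0.57 and 0.51, and the salvage enzyme APRT rose by 0.59, DUT by 0.45 and ADSS1 by 1.0. Aldehyde dehydrogenases had 8 of 13 up and 4 down (median 0.35). ALDH1L2, a mitochondrial folate enzyme that makes NADPH, stood at 30.3, 30.1 and 33.3 CPM under PBS and 87.2, 80.8 and 79.6 CPM under AA and changed by -0.53 in intact cells, with a difference of 1.94 (SE 0.0887, edgeR adjusted p = 2.27e-13). ALDH1B1 went down from 48.5 ± 2.68 to 13.8 ± 1.81 CPM (SD, n = 3), ALDH5A1, ALDH18A1 and ALDH1A3 fell by 0.65, 0.63 and 0.62, and ALDH6A1, ALDH3B1, ALDH7A1 and ALDH16A1 rose by 0.95, 0.69, 0.58 and 0.57. Aldo-keto reductases had 3 of 9 up and 2 down (median 0.18, and -0.19 without the length trend). These shares, 33.3% and 22.2%, lay below the 37.0% and 37.4% of all genes. Those down were AKR1C1, from 24.4 ± 2.99 to 7.9 ± 1.28 CPM, and AKR1B1, from 983 ± 31.5 to 628 ± 13.9 CPM (SD, n = 3). Counts of AKR1C1 can be shared with its near-identical relatives.

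Glutathione S-transferases rose in 9 of 12 cases with none down (median 0.31, and -0.02 without the length trend). GSTO1 and GSTO2, the omega enzymes that can reduce dehydroascorbate, rose by 0.17 (turned to -0.26 without the length trend) and 0.99, GSTZ1 from 5.34 ± 0.423 to 10.9 ± 0.421 CPM and GSTP1, the pi enzyme, from 376 ± 12.4 to 509 ± 7.08 CPM (SD, n = 3). MGST1, GSTM4 and GSTA4 were not called, at -0.07, 0.10 and 0.38, although MGST1 fell without PBS replicate 2 (-0.11). No difference from intact cells was called higher and 6 were called lower, beside 21.6% and 23.0% of all genes. Nuclear genes of respiratory complex I rose in 29 of 37 cases and fell in 2 (median 0.32, and -0.06 without the length trend), among them NDUFS4 (0.81), NDUFS8 (0.78) and NDUFB5 (0.70), with NDUFC2 (-0.29) and NDUFS5 (-0.15) down. The call of NDUFS5 was lost without PBS replicate 1 or 3 or AA replicate 1 or 3, with library sizes or upper quartile factors, and with limma on FPKM (-0.09 to -0.15 in all). Of 12 genes of the liver X receptor and sterol efflux 6 rose and 5 fell (median 0.11), beside 37.0% and 37.4% of all genes. Calls in this list thus went both ways, as they did over all genes. The receptor NR1H3 stood at 16.6, 15.9 and 16 CPM under PBS and 38.4, 36.4 and 40.3 CPM under AA, ABCA1 rose by 0.99 and MYLIP, a ubiquitin ligase that the receptor induces, by 1.06. STARD4 and NCEH1 fell by 0.89 and 0.46, and the rises of ABCA1 and MYLIP were smaller than in intact cells (differences -1.03 and -0.82, edgeR adjusted p = 0.000166 and 0.00116). Of the list's differences from intact cells 2 were called higher and 4 lower, beside 21.6% and 23.0% of all genes.

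Base excision repair, which removes oxidised and deaminated bases, had 13 of 21 genes up and 6 down (median 0.41, and 0.09 without the length trend). MUTYH, the glycosylase that acts opposite 8-oxoguanine, stood at 8.52, 8.81 and 9.28 CPM under PBS and 23.5, 24.3 and 23.4 CPM under AA, and NTHL1, which removes oxidised pyrimidines, rose from 17.6 ± 0.962 to 41.4 ± 0.828 CPM (SD, n = 3). POLL and NEIL3 rose by 1.03 and 0.96, TDG, LIG3 and APEX2 fell by 0.66, 0.47 and 0.40, and APEX1, the main abasic endonuclease, was at 0.03 (edgeR adjusted p = 0.445). The MUTYH rise exceeded that in intact cells by 0.92 (SE 0.121, edgeR adjusted p = 2.41e-06). In the BCL2 family 12 of 19 genes rose and 3 fell (median 0.30). The BH3-only activators of apoptosis PMAIP1 and BBC3 stood at 16.2, 19.2 and 17.3 CPM under PBS and 33.7, 33.9 and 34.6 CPM under AA and at 2.33, 2.92 and 2.46 CPM under PBS and 4.51, 4.98 and 5.61 CPM under AA. They changed by 0.01 and -0.33 in intact cells (differences 0.95 and 1.29, edgeR adjusted p = 1e-06 and 0.00195). HRK and BIK rose by 0.96 and 0.71. Of the protective members, BCL2L1 rose by 0.27, and BCL2L2 fell by 0.80. BCL2L11, another activator, fell by 0.17, a call that each of 4 left-out libraries ended (PBS replicates 1 and 2, AA replicates 1 and 3, -0.13 to -0.16), as did DESeq2, library sizes, upper quartile factors and limma on FPKM (-0.08 to -0.16). Without the length trend it was at 0.00.

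In 3 small families members were called both ways, beside 37.0% of all genes up and 37.4% down. Of 4 tested apolipoprotein L genes 1 rose and 3 fell (median -1.27). APOL1 stood at 56, 54.7 and 63.5 CPM under PBS and 18.4, 19.5 and 20.8 CPM under AA. APOL2 and APOL6 fell by 1.49 and 1.06, while APOL4 had no count under PBS and 19 counts over the AA libraries, at least 5.34-fold higher against a floor of 3 counts over the group. APOL1 rose in intact cells (0.57), and the difference was -2.15 (SE 0.0899, edgeR adjusted p = 5.87e-14). Among 7 claudins, which seal tight junctions, 2 rose and 2 fell (median 0.02, and -0.13 without the length trend). CLDN7 stood at 2.45, 3.4 and 2.46 CPM under PBS and 17, 19.4 and 17.1 CPM under AA and CLDN1 rose from 72.7 ± 7.05 to 151 ± 4.2 CPM (SD, n = 3), against a fall of CLDN1 in intact cells (-0.97, difference 2.03, edgeR adjusted p = 9.29e-13). CLDN12 fell by 0.80 and CLDN18 by 2.69 from 0.674, 0.364 and 0.738 CPM. Of 11 laminins 6 rose and 3 fell (median 0.24, and 0.48 without the length trend). LAMA1 stood at 51.2, 53.1 and 50.5 CPM under PBS and 12, 10.7 and 12.1 CPM under AA, and LAMB1 at 343, 356 and 348 CPM under PBS and 724, 703 and 698 CPM under AA. The AA libraries of the first all lay below and those of the second all above the PBS libraries, LAMA4 rose by 1.26, and LAMB1 changed by 0.08 in intact cells (difference 0.94, edgeR adjusted p = 9.69e-14).

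Clock genes, keratins and a few further genes lie outside the rule by which genes were named, and those given here were chosen after their values were seen. Of 22 circadian clock genes 10 (45.5%) rose and 8 (36.4%) fell (median 0.16, and 0.26 without the length trend), near the 37.0% and 37.4% of all genes, and 8 differences from intact cells were called higher and 0 lower, beside 21.6% and 23.0% of all genes. BMAL1, the activator that pairs with CLOCK, stood at 10.5, 10.9 and 11.4 CPM under PBS and 43, 44.3 and 42.2 CPM under AA. The repressor CRY2 stood at 15.9, 15.9 and 14.1 CPM under PBS and 3.74, 3.23 and 3.51 CPM under AA. The activator rose and the repressor fell with no overlap, by 1.98 (SE 0.0705, edgeR adjusted p = 2.63e-16) and 2.13 (SE 0.127, edgeR adjusted p = 1.65e-12) on the log2 scale. CRY1 and PER3, repressors too, fell by 0.94 and 0.85, while NFIL3 and NR1D1, which are repressors as well, rose by 2.13 and 1.9. Repressors thus moved both ways. The output factor DBP rose by 2.1. BMAL1, NFIL3 and NR1D1 rose more than in intact cells (differences 1.09, 1.21 and 1.32, edgeR adjusted p = 2.39e-08, 1.73e-05 and 2.18e-07), while CRY2 changed by -2.13 there (difference 0.00, edgeR adjusted p = 0.997). Of the simple epithelial keratins, KRT8 went from 1270.0 ± 46.8 to 771 ± 15.2 CPM and its partner KRT18 from 742 ± 44.2 to 1001 ± 25.8 CPM (SD, n = 3), and KRT8 rose by 0.46 in intact cells (difference -1.18, edgeR adjusted p = 4.78e-15). KLF2 and KLF4, zinc finger factors, rose by 2.21 and 1.78, VPS18 and VPS33B, tethers of endosome and lysosome fusion, fell by 2.12 and 2.0, and EIF4EBP2, a repressor of cap-dependent translation, fell by 1.95. PFKFB4, which sets fructose bisphosphate signalling to glycolysis, and PDP2, a pyruvate dehydrogenase phosphatase, fell by 1.98 and 2.17, and FASN, fatty acid synthase, by 0.94.

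Of 101 lists outside the stress programs and markers, 100 had at least 5 tested members. In 16 at least 60% of the tested members rose, in 9 at least 60% fell, and 75 lay below both, with medians between -0.34 and 0.60. Among the last were Mediator, TFIID and Integrator subunits, hnRNP genes, nucleoporins, translation initiation factors, RAB GTPases, kinesins, collagens, the Notch and TGF-beta pathways, DNA replication and p53 targets, so these families had genes called in both directions and no majority of this size. All lists were chosen with results of these libraries known.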

How the data were processed

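RNA from A549 cells was enriched with oligo(dT), made into libraries with an NEBNext Ultra kit and sequenced on a NovaSeq instrument, per the labels' protocols. The authors deposited, per gene and library, an estimated count, which is not whole in 10.9 to 11.5% of all values, and an FPKM value. The tools named, per the submitters' processing notes and with no role stated, are RSEM, HISAT2 2.1.0, StringTie 1.3.1, fastp 0.18.0 and Bowtie2 2.2.8. Genome build, annotation and strand setting were not given in the sources used.

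Estimated counts were rounded, filtered (filterByExpr, minimum count 10) and scaled with TMM, and all 12 libraries entered 1 quasi-likelihood fit by group in edgeR 4.0.16 under R 4.3.3, with 8 residual degrees of freedom. Genes with a Benjamini-Hochberg adjusted p under 0.05 over all tested genes were called, and the difference between deficient and intact cells was tested in the same fit. The model was tested on simulated counts with 200 changed genes and the same spread for every gene, where 5 of 146 calls were false. CPM values are counts per 1000000 of the TMM-scaled library and are not corrected for length. Alternatives used DESeq2 1.42.0, limma 3.58.1 with voom or on log2(FPKM + 1) and log2(FPKM + 0.1), other scalings, filters and thresholds, a replicate block, and each library left out. Libraries of a group differed by 2.01 to 4.37 times the sampling noise (chi-square per degree of freedom), so none was a repeat deposit.

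Of 20323 gene IDs, 20301 had a name, 20171 a position in GENCODE 29 (GRCh38), and 458 symbols stood at more than 1 ID. Length, the estimated count over FPKM, was had for 12308 (96.8%) of the tested genes. Genes were named as the 15 largest rises and falls (called, no overlap, unique symbol, mean log2 CPM of at least 3, outside the stress lists). In lists with at least 60% of at least 5 tested members called 1 way, or concerning ascorbate, up to 4 called members each way (mean log2 CPM of at least 1) and the 2 of highest level were named, as was any member of a list of at most 15 and STK11; a few of these are not reported here. Lists and members were chosen with earlier results of these data known.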

Additional observations from a re-analysis of the deposited data

Results flagged for a closer look

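The response of deficient cells differed from that of intact cells, by the test of the difference adjusted over all genes with edgeR, for 25 of the 30 ranked genes, of which 24 are given. Genes were ranked on the deficient response, so differences away from 0 in its direction were favoured, and 44.6% of all tested genes had a called difference. Among the rises the difference on the log2 scale was 1.96 for ETV5, 1.21 for ETV1 and 1.62 for ETV4. It was 0.56 for ERRFI1, 2.01 for LMO4, 1.54 for TSC22D3, 2.15 for IGFBP1 and 1.92 for PCK2. The histone gene H2AC6 differed by 1.63, CYP1A1 by 1.4, CYSRT1 by 0.87, SEMA3A by 1.75 and IL20RB by 1.33. The smallest of these differences, that of ERRFI1, had an edgeR adjusted p of 2.81e-05, and the highest p was that of CYSRT1, 0.000714.

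Among the falls the difference was -0.32 for LENG8, -0.66 for JRK, -0.91 for ANKRD36, -0.85 for EPM2AIP1 and -0.37 for PLAGL2. It was -0.72 for ZBED6, -0.35 for GOLGA8A, -0.70 for ZNF587, -0.73 for ENTPD7 and -0.84 for CLN8. ZNF469 went the other way, with a fall smaller by 0.31 in deficient cells (edgeR adjusted p = 0.0304). GOLGA8A lay nearest the threshold among the rest (edgeR adjusted p = 0.0349).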

How the results depend on the processing

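Of the counts of called genes, 1 moved by more than 1.5 times under the 19 alternatives: genes called with a change of at least 1 log2 numbered 1838 with edgeR and 780 with limma on log2(FPKM + 1), a scale that shrinks the change of low genes, while log2(FPKM + 0.1) gave 1352. Leaving out each library gave 9083 to 9179 genes called, 4477 to 4548 up, 4600 to 4631 down, 1820 to 1875 with at least 1 log2, and 49.3 to 49.7% of calls up, against 49.7% with all libraries and 54.8% with library sizes in place of TMM factors. DESeq2 called 9160 genes. The fit with a replicate block called 9292, but same-numbered PBS and AA libraries deviated with correlations of -0.094, -0.071 and -0.007, so the numbers did not pair the libraries, and not every library correlated best with its own number. The median of all genes lay between 0.01 and 0.07 under every scaling tried. Each scaling brings the libraries to a common level, so this median and the balance of calls up and down follow in part from it. A change in the total RNA of the cells was not tested.

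Of 305 called genes named, 285 kept their direction and call under every alternative with a test that tested them. The others include IGF2R, PRPS1, RPL7A, SF3B1 and SRSF5, which lost their calls on FPKM or library sizes. Directions turned on FPKM for ADPRHL1 (0.58 and 0.68 with the 2 pseudocounts) and MED28 (0.00 in both). Removal of the length trend turned ARNT (0.07), ARPC3 (-0.15), COPA (0.06), COPE (-0.05), GSTO1 (-0.26), IGF2R (0.17), IGFBP7 (-0.09), INSR (0.11), MYL12A (-0.12), NQO1 (-0.21), SF3B1 (0.01), SF3B3 (0.14), SRSF9 (-0.01), TALDO1 (-0.18) and TIMP1 (-0.24), brought KDM5C to 0.00, and gives no test. KRT14 turned without PBS replicate 1 (-0.55), and ranged up to 0.60 with another library left out. With library sizes in place of TMM factors, 5 in place of 2 NF-kB genes and 11 in place of 7 actin and myosin genes were called up. With limma on FPKM, 5 in place of 9 mitochondrial ribosomal protein genes and 4 in place of 7 pentose phosphate genes were called down, and SPRED1 and SRSF8 lost their calls. With a minimum count of 50, 3 in place of 6 RGS genes were called up. The causes were not tested beyond what each alternative changes. In simulated counts at this depth, 24% of changes of 0.25 log2, 75% of 0.5, 94% of 1 and 100% of 2 log2 were called among 12478 genes, so small changes not called here may lie under that limit.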

Other observations

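Some genes with retinoid or stem-cell roles lay apart between treatments at low levels, and were chosen after their values were seen. CYP26A1, which breaks down retinoic acid, stood at 0, 0.0607 and 0 CPM under PBS and 0.671, 0.383 and 0.472 CPM under AA. The receptor RARB stood at 1.1, 0.607 and 0.615 CPM under PBS and 0.0479, 0.164 and 0.105 CPM under AA. LGR5, a receptor for R-spondins, stood at 0, 0.0607 and 0 CPM under PBS and 0.144, 0.876 and 0.315 CPM under AA. The AA libraries of CYP26A1 and LGR5 all lay above and those of RARB all below the PBS libraries. Such an absence of overlap was found for 75.5% of all tested genes, and these values rest on few counts. CYP26A1 changed by 4.25 on the log2 scale, against 7.28 in intact cells (difference -3.03, edgeR adjusted p = 0.28). RARB changed by -2.83 on the log2 scale, against -0.51 in intact cells (difference -2.32, edgeR adjusted p = 0.0246). CDH5, a cadherin named for endothelium, stood at 6.25, 8.08 and 8.73 CPM under PBS and 0.719, 0.821 and 1.57 CPM under AA.

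The length that each library's estimated count and FPKM imply for a gene depends on which of its transcripts the authors' program credits, and this was looked at after the data were seen. Of 10447 genes with at least 50 estimated counts and an FPKM of at least 0.5 in all 6 libraries, the 3 AA and 3 PBS values did not overlap for 2842 (27.2%), 1336 longer and 1506 shorter under AA. A ratio of at least 0.5 log2 as well was found for 77 (0.737%), of which 64 were shorter under AA and 13 longer. ADPRHL1 had 5880, 6742 and 6703 bp under PBS and 2956, 2842 and 2785 bp under AA. MUC16 had 26635, 24941 and 27369 bp under PBS and 15728, 12908 and 12139 bp under AA. Both were shorter in every AA library, and MED28 (4566 to 2562 bp on average) was shorter too. PRTG went the other way, from 3329 to 5454 bp on average. For ADPRHL1 and MED28 the fall in counts under AA (-0.53 and -0.89 on the log2 scale) turned to 0.58 and 0.00 on the scale of log2(FPKM + 1). No transcript-level table was used, so which transcripts changed was not tested.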
